A study of Mus musculus with 6 samples.

Results

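The goblet cell mucus and secretory programme comprised 37 genes of the 52550 listed in each expression file: mucins, trefoil factors and other secreted mucus proteins, the endoplasmic reticulum (ER) enzymes that fold them, the transcription factors of the lineage, the machinery of granule traffic, and proteases and membrane proteins found in these cells. The genes were chosen by name for their known roles, with earlier results of these data already seen, and all 37 were matched to an identifier. Of these, 35 passed the filter of 1 FPKM (fragments per kilobase of transcript, scaled to the depth of the library) in 3 samples. Trefoil factor Tff1 was listed at 0 in every sample and Tff2 reached at most 0.429 FPKM, an estimated 0 to 7 fragments, so neither entered the counts below.

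Goblet cells are the mucus-producing secretory cells of the colon. They assemble the gel-forming mucin Muc2 in the ER, pack it with trefoil peptides and other proteins into apical granules, and release it to build the mucus layer that keeps luminal bacteria away from the epithelium. The lineage branches from crypt progenitors in which Atoh1 is active and matures under factors such as Spdef, and loss of goblet cells and mucus is a familiar feature of colitis.

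The question was how this programme stood in colonic epithelium with and without the zinc finger gene Zfp90 after chemically induced, colitis-associated tumorigenesis. RNA was taken from 3 Zfp90fl/fl samples, whose floxed allele is intact, and 3 Zfp90deltaIEC samples, in which a Villin-driven Cre deletes the floxed allele in intestinal epithelial cells. All were male C57BL/6 mice, given as 6 to 8 weeks old, that carried the floxed allele and had received azoxymethane (AOM) at 10 mg/kg and, from 5 days later, 3 cycles of 2% dextran sulfate sodium (DSS) for 7 days and plain water for 14 days. These ages and doses are those of the labels; the study's methods give a somewhat higher DSS concentration and a single age. Colon epithelium was released with EDTA and DTT on day 80 as a whole fraction, so goblet and other cells were measured together. The share of tumour epithelium in it is not given in the sources used here. Genotypes were housed apart after weaning, so cage and genotype cannot be told apart. The labels number the replicates without saying that each is 1 mouse; if they are not, p-values measure only the spread between these samples, which may be technical.

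Zfp90 itself stood at 0.630, 0.490 and 0.569 FPKM in Zfp90fl/fl samples 1, 2 and 3 and at 0.0846, 0.195 and 0.166 FPKM in Zfp90deltaIEC samples 1, 2 and 3. The groups did not overlap, and the ratio of the means was 0.264. The difference on the log2(FPKM + 1) scale, which understates the change of a gene this low, was −0.44 (SE 0.0565). It had an adjusted p of 0.123 by limma among all unfiltered genes. The 6 libraries were alike in depth, at an estimated 25700000 to 28600000 fragments, and every pair correlated between 0.980 and 0.990 across genes. Of 11564 genes tested by limma on log2(FPKM + 1), 23 (0.199%) passed an adjusted p of 0.05, and 10 did without Zfp90fl/fl sample 2. The defining goblet markers Muc2, Tff3, Fcgbp, Zg16, Spdef, Atoh1, Agr2 and Spink4 were all expressed in every sample.

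No member passed an adjusted p of 0.05 by limma, the one tool run, and adjusted p-values of the members ran from 0.109 to 0.999. At an unadjusted p under 0.05 there were 8 members of 35, against 14.6% of all genes: Zg16, Klk1, Agr2, Agr3, Spdef and Capn9 were the higher ones in Zfp90deltaIEC samples and Muc1 and Muc13 the lower ones. That count was 3 without Zfp90fl/fl sample 3, a fit for which the share of all genes is not given here. The groups did not overlap, with Zfp90deltaIEC higher, for 6 members (Muc2, Zg16, Klk1, Agr2, Agr3 and Capn9), against 8.73% of all genes, and with Zfp90deltaIEC lower for 2 (Muc1 and Muc13), against 12.6%. The log2 fold change was above 0 in 27 of 35 members, against 42.8% of all genes, with a median of 0.14 over the members and −0.02 over all genes. In bulk RNA such differences cannot be told apart as fewer or more cells of a type or less or more RNA per cell.

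Much of this rested on a single sample. Zfp90deltaIEC sample 1 held the highest of the 6 values for 28 of 35 members, against 17.9% of all genes, and the lowest for 0. Relative to the Zfp90fl/fl mean of each gene, the median member lay 0.40 higher on the log2 scale in Zfp90deltaIEC sample 1, and at −0.01 and −0.03 in samples 2 and 3. Over all genes those medians were −0.01, −0.02 and −0.03. In Zfp90deltaIEC sample 1, 11 members were above 1.5 times the mean of the other 5 samples, against 1.92% of all genes, while no other sample had more than 1 such member. Without that sample, the median log2 fold change of the members was −0.02 and 15 of 35 lay above 0, against 42.8% of all genes.

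**Figure D1:**
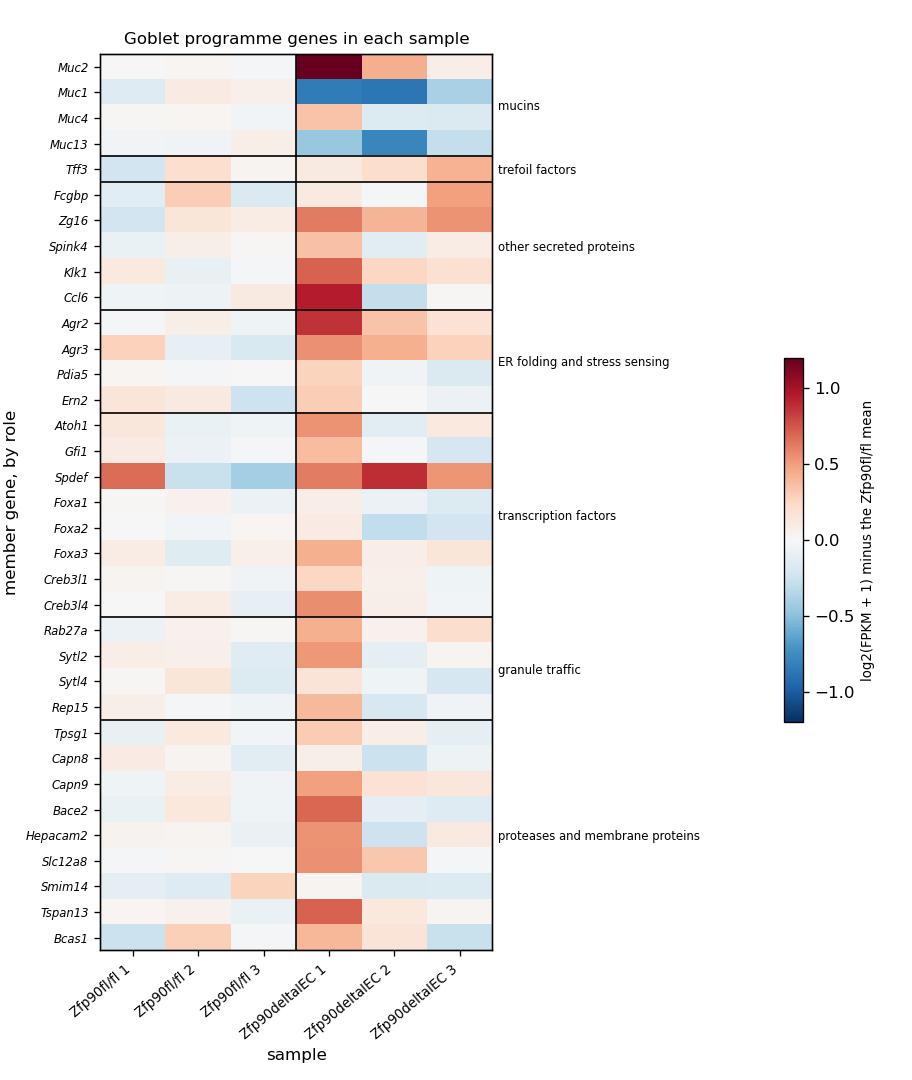
Rows are the 35 members that passed the filter, grouped by role, and columns the 6 samples; colour gives log2(FPKM + 1) minus the mean of the 3 Zfp90fl/fl samples for that gene, red above and blue below. The column of Zfp90deltaIEC sample 1 is red in most rows, with 28 of 35 members at their highest there, while Muc1 and Muc13 are blue in all 3 Zfp90deltaIEC samples.

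The spread between samples differed in the same way. The SD of log2(FPKM + 1) was larger among Zfp90deltaIEC samples for 29 of 35 members, against 58.8% of all genes. Its median over the members was 0.0969 among Zfp90fl/fl samples and 0.255 among Zfp90deltaIEC samples, where all genes had medians of 0.0823 and 0.0987. Members made up 0.792%, 0.856% and 0.822% of all FPKM in Zfp90fl/fl samples 1 to 3, and 1.20%, 0.866% and 0.888% in Zfp90deltaIEC samples 1 to 3.

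Among the mucins, secreted Muc2 had its higher values, and membrane-bound Muc13 and Muc1 their lower values, in Zfp90deltaIEC samples. Muc2, the gel-forming mucin of the colon, was at 440.2, 444 and 431 FPKM in the Zfp90fl/fl samples and at 1009.6, 593 and 465 FPKM in the Zfp90deltaIEC samples. Each Zfp90deltaIEC value lay above all Zfp90fl/fl values, with sample 1 far above the rest and sample 3 close to the controls. The log2 fold change was 0.57 (SE 0.255), with an adjusted p of 0.368 by limma, and it was 0.26 (SE 0.107) without Zfp90deltaIEC sample 1. Muc13, a membrane mucin of the enterocyte and goblet surface, was at 651, 645 and 699 FPKM in Zfp90fl/fl and at 484, 385 and 546 FPKM in Zfp90deltaIEC samples. All Zfp90deltaIEC values were the lower ones, with a log2 fold change of −0.51 (SE 0.125, adjusted p of 0.137 by limma). Muc1, the membrane mucin that also signals from its cytoplasmic tail, was at 2.71, 3.42 and 3.32 FPKM against 1.32, 1.27 and 2.15 FPKM. Its groups did not overlap either, and the ratio of the means was 0.501, the lowest among members that passed the filter. On the log2(FPKM + 1) scale, which understates the change of a gene this low, the difference was −0.70 (SE 0.143) with the smallest adjusted p of any member, 0.109 by limma. Without Zfp90deltaIEC sample 1 the differences of Muc13 and Muc1 were −0.53 and −0.63. Muc4, another membrane mucin, had means of 10.0 ± 0.252 and 10.2 ± 2.39 FPKM (SD, n = 3).

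The promoters of Muc2 and Agr2, whose highest values both fell in Zfp90deltaIEC sample 1, and of Muc13 and Muc1, which were lower in all Zfp90deltaIEC samples, are printed to set the opposed members side by side. Each is the 250 bases before the RefSeq start on GRCm38.p6, plus strand, 5′ to 3′: chr7:141690090-141690339 for Muc2, chr12:35992675-35992924 for Agr2, chr16:33793787-33794036 for Muc13 (the first of 2 starts listed) and chr3:89228806-89229055 for Muc1. Capitals mark matches, on either strand, to CAGCTG or CAGATG (E-box letters of the kind Atoh1 binds), TGTTTAC or TGTTTGC (forkhead), ACGTG, and TTTATGG or TTTATTG (caudal-type, CDX).
Muc2: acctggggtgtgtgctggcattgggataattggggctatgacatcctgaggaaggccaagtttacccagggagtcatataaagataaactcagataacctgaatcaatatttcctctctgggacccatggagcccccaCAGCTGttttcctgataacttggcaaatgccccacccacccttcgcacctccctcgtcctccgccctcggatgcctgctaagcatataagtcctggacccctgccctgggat
Agr2: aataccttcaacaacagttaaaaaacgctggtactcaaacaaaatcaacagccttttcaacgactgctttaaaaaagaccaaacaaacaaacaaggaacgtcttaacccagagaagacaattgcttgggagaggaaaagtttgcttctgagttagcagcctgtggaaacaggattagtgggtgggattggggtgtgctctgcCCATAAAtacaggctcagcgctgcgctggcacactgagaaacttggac
Muc13: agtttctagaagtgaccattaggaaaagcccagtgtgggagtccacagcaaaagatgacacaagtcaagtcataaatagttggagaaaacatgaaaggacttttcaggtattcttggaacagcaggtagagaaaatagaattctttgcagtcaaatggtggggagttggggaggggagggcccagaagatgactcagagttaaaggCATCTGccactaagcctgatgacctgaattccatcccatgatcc
Muc1: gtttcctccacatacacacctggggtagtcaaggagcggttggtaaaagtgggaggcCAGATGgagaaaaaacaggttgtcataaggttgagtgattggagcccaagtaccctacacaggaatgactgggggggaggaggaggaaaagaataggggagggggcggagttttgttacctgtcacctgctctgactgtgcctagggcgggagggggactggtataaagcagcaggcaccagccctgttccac
The E-box letters occurred in the Muc2, Muc13 and Muc1 windows and the CDX letters in that of Agr2, none of them overlapping another motif. Over the 26 members with a RefSeq promoter, the E-box letters were found in 12, against 28.2% of 27025 genes, the forkhead letters in 3 (8.2% of all genes), ACGTG in 4 (18.5%) and the CDX letters in 2 (7.5%). A match is a run of letters and not a measured binding site.

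**Figure D2:**
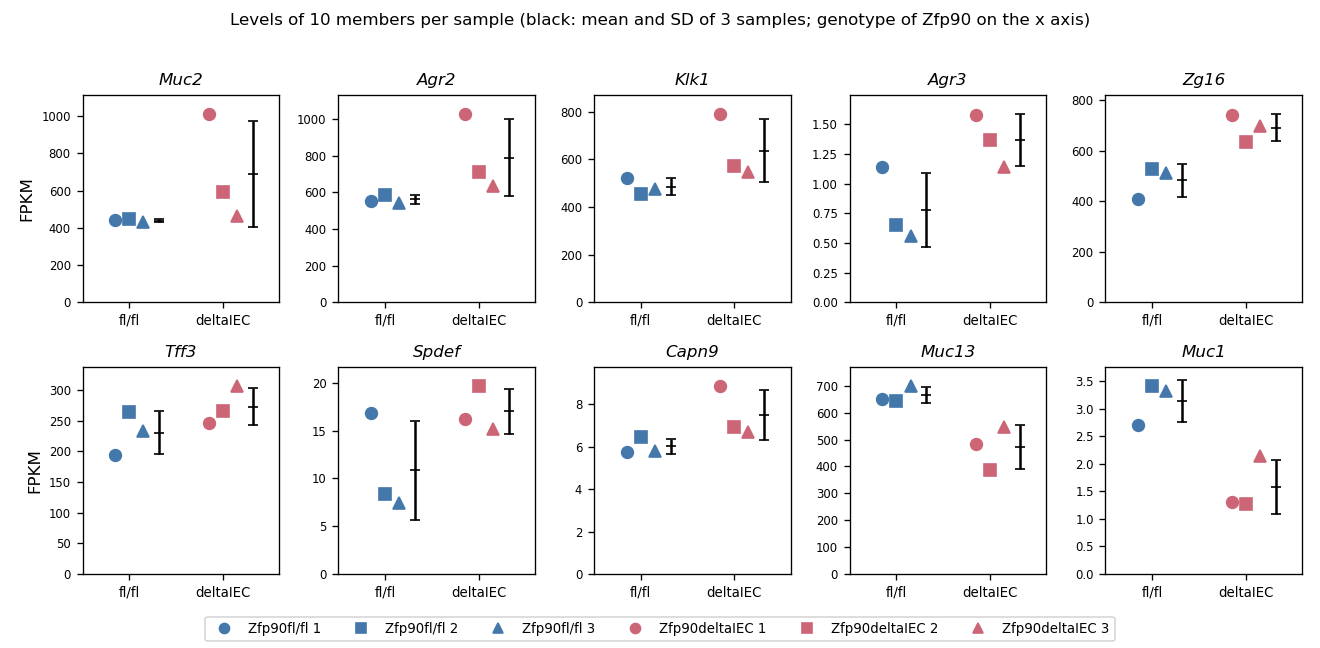
FPKM (linear axes from 0) of 10 members in each sample, Zfp90fl/fl in blue and Zfp90deltaIEC in red, marker shape giving the sample number; black bars are the mean and SD of 3 samples. Muc2, Agr2 and Klk1 are highest in Zfp90deltaIEC sample 1 (Muc2 at 1009.6 FPKM), Zg16 is higher in all 3 Zfp90deltaIEC samples, and Muc13 and Muc1 are lower in all 3.

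Of the trefoil factors, the peptides that help to cross-link mucus and promote epithelial repair, only Tff3 was expressed above the filter. It was at 195, 264 and 234 FPKM in Zfp90fl/fl and 247, 266 and 307 FPKM in Zfp90deltaIEC samples. The ranges overlapped, with a log2 fold change of 0.25 (SE 0.128, adjusted p of 0.428 by limma). Unlike Muc2, its highest value was in Zfp90deltaIEC sample 3.

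The other secreted proteins all had log2 fold changes above 0, against 42.8% of all genes. Without Zfp90deltaIEC sample 1, Spink4 (−0.02) and Ccl6 (−0.14) lay below 0. The summed level of the group was 1340 ± 53.8 FPKM in Zfp90fl/fl and 1753 ± 249 FPKM in Zfp90deltaIEC samples (SD, n = 3). Its log2 ratio of 0.39 became 0.27 without that sample. Zg16, a mucus lectin that binds Gram-positive bacteria, was at 408, 529 and 510.0 FPKM in Zfp90fl/fl and 739.7, 635 and 699 FPKM in Zfp90deltaIEC samples. All 3 Zfp90deltaIEC values were above the controls, and unlike for Muc2 they lay close to each other. Its log2 fold change was 0.52 (SE 0.112, adjusted p of 0.117 by limma) and 0.47 without Zfp90deltaIEC sample 1. Klk1, the tissue kallikrein, was at 523, 453 and 476 FPKM against 789.7, 574 and 547 FPKM. Its groups did not overlap, and its log2 fold change of 0.38 (SE 0.142, adjusted p of 0.300 by limma) became 0.21 without sample 1. Klk1 has close relatives among which the counting could divide reads, but it accounted for 523 of 525 FPKM of its 24-gene family in Zfp90fl/fl sample 1 and 789.7 of 790.9 in Zfp90deltaIEC sample 1. The chemokine Ccl6 was the most one-sided of the group, at 146 FPKM in Zfp90deltaIEC sample 1 and 61.7 to 81.4 FPKM in the other 5. Fcgbp, a large mucus protein bound to Muc2, had means of 115 ± 21.7 and 132 ± 25.3 FPKM, and the peptidase inhibitor Spink4 of 183 ± 9.54 and 198 ± 32.9 FPKM (SD, n = 3).

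The ER members were carried by Agr2, the disulfide isomerase needed to make intestinal Muc2. Agr2 was at 555, 588 and 541 FPKM in Zfp90fl/fl and at 1026.5, 711 and 633 FPKM in Zfp90deltaIEC samples. As with Muc2, the groups were separate and the samples of Zfp90deltaIEC ran in the order 1, 2, 3 from high to low. The log2 fold change was 0.46 (SE 0.168, adjusted p of 0.284 by limma), and 0.26 without sample 1. Its paralogue Agr3 was scarce, at 1.14, 0.651 and 0.556 FPKM against 1.58, 1.37 and 1.14 FPKM, and its closest values, 1.138 and 1.142 FPKM, nearly met. The ratio of the Agr3 means was 1.75. On the log2(FPKM + 1) scale, which understates the change of a gene this low, the difference was 0.42 (SE 0.140, adjusted p of 0.253 by limma). Pdia5, another disulfide isomerase, and Ern2, the goblet-enriched ER stress sensor IRE1β, had ratios of the means of 1.02 and 1.05 and were both highest in Zfp90deltaIEC sample 1.

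Of the 8 transcription factors, Spdef, which drives goblet maturation, had the largest positive log2 fold change of any member on the log2(FPKM + 1) scale. By the ratio of the means, Agr3 (1.75) and Muc2 (1.57) ranked above Spdef (1.56). Spdef was at 16.8, 8.33 and 7.45 FPKM in Zfp90fl/fl and 16.2, 19.7 and 15.1 FPKM in Zfp90deltaIEC samples. Zfp90fl/fl sample 1 lay among the Zfp90deltaIEC values while the other Zfp90fl/fl samples were near 8 FPKM, so the groups overlapped. The log2 fold change was 0.68 (SE 0.273, adjusted p of 0.325 by limma), and it did not shrink without Zfp90deltaIEC sample 1 (0.71). Creb3l1, an ER-anchored factor and the most abundant of the 8, was at 72.0, 70.7 and 68.0 FPKM against 83.3, 73.1 and 67.8 FPKM, a log2 fold change of 0.08 (SE 0.0819). Atoh1, which commits progenitors to the secretory fate, was at 13.7 to 16.7 FPKM in 5 samples and at 22.3 FPKM in Zfp90deltaIEC sample 1, and its log2 fold change was 0.18 with that sample and −0.002 without it. Gfi1, Foxa1, Foxa2, Foxa3 and Creb3l4 had log2 fold changes between −0.14 and 0.22 and all were highest in the same sample.

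The granule members Rab27a, a small GTPase, and its effectors Sytl2 and Sytl4, which tether secretory granules, stood between 2.98 and 7.09 FPKM. Rep15, a Rab15 effector and the most abundant of the group, was at 25.9, 24.3 and 23.7 FPKM against 32.6, 21.5 and 23.8 FPKM. Zfp90deltaIEC sample 1 was the highest and sample 2 the lowest, and the log2 fold change of 0.05 turned to −0.12 without sample 1. All 4 granule members were highest in Zfp90deltaIEC sample 1, and their summed level was 36.9 ± 1.64 FPKM in Zfp90fl/fl and 39.8 ± 8.49 FPKM in Zfp90deltaIEC samples (SD, n = 3).

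Of the 9 proteases and membrane proteins, 7 were highest in Zfp90deltaIEC sample 1. The digestive-tract calpain Capn9 was at 5.78, 6.45 and 5.82 FPKM in Zfp90fl/fl and 8.87, 6.93 and 6.72 FPKM in Zfp90deltaIEC samples. Its groups did not overlap, with a log2 fold change of 0.27 (SE 0.104, adjusted p of 0.309 by limma). The tetraspanin Tspan13 was at 24.8, 25.3 and 23.0 FPKM against 40.3, 26.7 and 24.9 FPKM, and its log2 fold change of 0.29 became 0.08 without Zfp90deltaIEC sample 1. The aspartyl protease Bace2 was at 12.1 FPKM in that sample and 6.26 to 7.85 FPKM in the other 5, and the immunoglobulin-family protein Hepacam2 at 21.7 FPKM against 12.2 to 15.9 FPKM. Capn8, Tpsg1, Slc12a8, Smim14 and Bcas1 had log2 fold changes between −0.11 and 0.28.

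**Figure D3:**
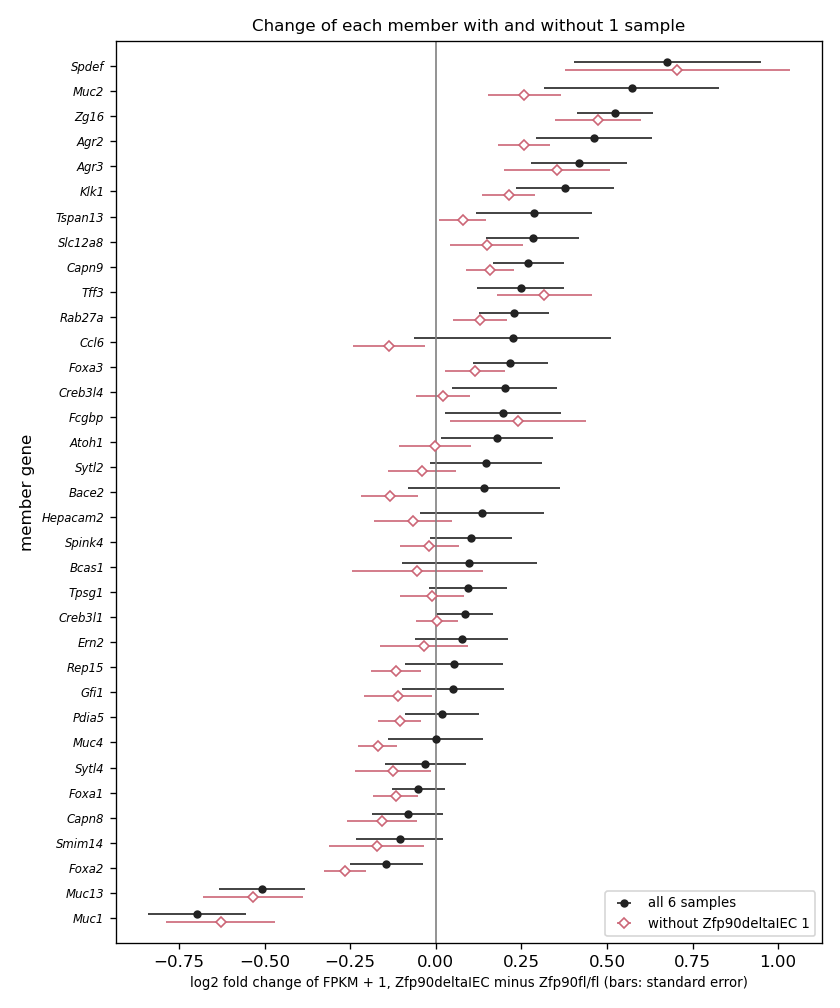
Log2 fold change of FPKM + 1 (Zfp90deltaIEC minus Zfp90fl/fl) of each member, with bars for the standard error, from all 6 samples (black circles) and without Zfp90deltaIEC sample 1 (open red diamonds). Muc1, Muc13, Zg16, Agr3, Tff3 and Spdef keep their place, whereas Muc2 moves from 0.57 to 0.26. Ccl6, Atoh1, Bace2 and Rep15, among others, move from above 0 to below it.

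Summed by role, Zfp90deltaIEC sample 1 was the highest in 6 of 7 groups, the trefoil factors being the exception. ER members summed to 609, 639 and 588 FPKM in Zfp90fl/fl and to 1089, 761 and 679.8 FPKM in Zfp90deltaIEC samples. Mucins summed to 1104, 1103 and 1144 FPKM against 1508, 988 and 1022 FPKM, so that Zfp90deltaIEC samples 2 and 3 lay below the controls and sample 1, with its Muc2 value of 1009.6 FPKM, above them. The mucin, trefoil and ER sums rest on 1 or 2 abundant genes each, and no sum was tested.

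Of the members on the genome, Agr3, Agr2 and Tspan13 lie together on chromosome 12 between 35925620 and 36042500 (GRCm38, GENCODE M21), a span of 117 kb with no other protein-coding gene. All 3 were highest in Zfp90deltaIEC sample 1. Slc12a8 and Muc13 lie within 303 kb on chromosome 16 and had opposite signs, with log2 fold changes of 0.28 and −0.51. Levels are per length of the annotated transcript, and the lengths behind the deposited FPKM are not given in the sources used here. In GENCODE M21, which need not be the annotation behind them, the longest Muc2 transcript has 2926 bases, short for a gel-forming mucin. The Muc2 level against other genes, and its weight in the summed FPKM, are therefore uncertain.

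Other goblet genes outside the 37 gave no call by limma either: 0 of 44 tested in 5 lists passed an adjusted p of 0.05, with 2 higher and 1 lower at an unadjusted p under 0.05, a smaller share than the 14.6% of all genes. Those were Klf4, a goblet differentiation factor, at 228, 223 and 214 against 241, 241 and 255 FPKM, the lectin Reg4 at 236, 245 and 208 against 278, 239 and 306 FPKM, and the resistin-like Retnlb at 53.5, 99.0 and 82.0 against 27.8, 21.5 and 59.5 FPKM. Klf4 was higher in all 3 Zfp90deltaIEC samples, while Reg4 and Retnlb overlapped. Muc3, a membrane mucin and the most abundant of the other mucins, was at 754, 764 and 911 against 901, 857 and 914 FPKM. Of 16 ER and Golgi genes of the secretory pathway, 12 were highest in Zfp90deltaIEC sample 1, among them Calr, the most abundant, at 289 FPKM there and 233 to 267 FPKM elsewhere. Of 13 genes of granule docking and mucus release, 4 were highest in that sample, and of 9 lineage regulators 2 were, beside 17.9% of all genes. The median of these lists in that sample, relative to the Zfp90fl/fl mean, was 0.01 and −0.06 on the log2 scale.

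Markers of other cells were read on the same samples. Of 7 stem and crypt-base markers that passed the filter, 5 were highest in Zfp90deltaIEC sample 1, against 17.9% of all genes. Slc12a2, the most abundant, was at 74.3 FPKM there and 47.0 to 55.1 FPKM elsewhere. Of 10 colonocyte markers none was highest there, and their summed level of 8420 FPKM was below the 12693 and 9542 FPKM of Zfp90deltaIEC samples 2 and 3 and above the 5668 to 7573 FPKM of the Zfp90fl/fl samples. The groups did not overlap, with Zfp90deltaIEC higher, for 6 of the 10, against 8.73% of all genes. Of 6 enteroendocrine markers that passed the filter, the other secretory lineage, 3 (Chga, Chgb and Gcg) were higher without overlap, against 8.73% of all genes. Another 2 of the 6 had log2 fold changes below 0. The whole list summed to 103 ± 6.33 FPKM in Zfp90fl/fl and 129 ± 13.2 FPKM in Zfp90deltaIEC samples (SD, n = 3). All 10 proliferation markers were higher in every Zfp90deltaIEC sample without overlap, against 8.73% of all genes. Of these, 1 was past the threshold (Mki67, log2 fold change 0.41, adjusted p of 0.0478 by limma). The 58 leukocyte markers summed to 153 to 177 FPKM in Zfp90fl/fl and 109 to 125 FPKM in Zfp90deltaIEC samples. The largest part was the B and plasma cell list, with mean sums of 57.4 and 54.5 FPKM. Every leukocyte list had a lower mean sum in Zfp90deltaIEC samples, with log2 ratios from −1.71 (mast cell) to −0.07 (B and plasma cell). Of the 17 markers that passed the filter, 3 were past the threshold and lower (Mcpt1, Mcpt2 and Cd14), and Ngp and Tpsab1 were at 0. Pan-epithelial markers summed to 6403 ± 392 and 6231 ± 265 FPKM (SD, n = 3). The part of these cells in the goblet values was not tested.

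**Figure D4:**
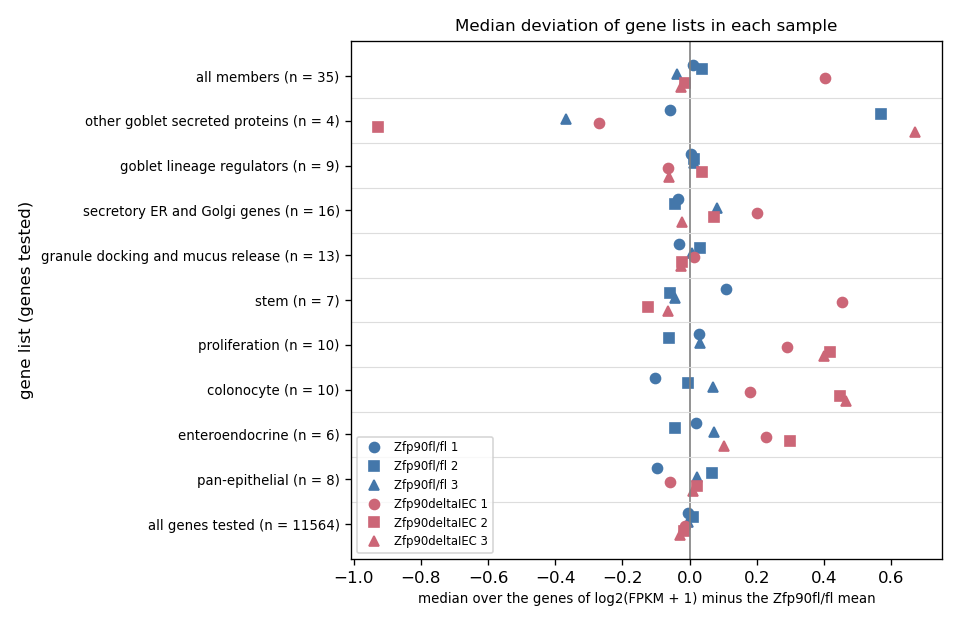
Median, over the genes of each list that passed the filter, of log2(FPKM + 1) minus the Zfp90fl/fl mean, for each of the 6 samples (blue Zfp90fl/fl, red Zfp90deltaIEC, marker shape giving the sample number). Zfp90deltaIEC sample 1 stands apart for the members (0.40) and the stem list (0.45) and, less far, for the ER and Golgi genes (0.20), while in the colonocyte and proliferation lists all 3 Zfp90deltaIEC samples lie above 0 and sample 1 is the lowest of them.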

How the data were processed

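Values were the FPKM the authors deposited, 1 file per sample. The submitters' processing notes name FastQC, STAR 2.5, Cuffnorm, DESeq 1.22.1 and build mm9, whereas the methods name TopHat and Cuffdiff with human build hg19; the identifiers are mouse. Libraries were stranded; whether counting used strand is not given in the sources used here. Depth was estimated from the steps of low FPKM values and is approximate.

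Samples were grouped by title, since the genotype field of Zfp90deltaIEC samples 2 and 3 names other Zfp genes. FPKM were tested as log2(FPKM + 1) with limma 3.58.1 (R 4.3.3, intensity trend, genotype only, two-sided), over the 11564 genes that reached 1 FPKM in 3 or more samples, with Benjamini-Hochberg adjustment and a threshold of 0.05. The fit was tested on simulated data. Values in every sample are given for members with an unadjusted p under 0.05 or no overlap of the groups and for the most abundant of each role group. The members and lists were chosen with earlier results of these data known. Symbols came from a table of gene names, positions from GENCODE M21, since the files hold none. Muc12 and Muc17 were not analysed here. Alternatives were another pseudocount, other filters, quantile and median ratio scaling, a replicate block, leaving out each sample, and a threshold of 0.1.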

Additional observations from a re-analysis of the deposited data

How the results depend on the processing

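No member passed the threshold under any alternative, nor at an adjusted p of 0.1, and none of the other goblet genes tested did. The count of all genes past the threshold, 23, was 13 with a pseudocount of 0.1, 15 without a filter and 176 at an adjusted p of 0.1, and ran from 10 (without Zfp90fl/fl sample 2) to 21 when samples were left out in turn. When samples were left out in turn, members at an unadjusted p under 0.05 by limma ran from 3 (without Zfp90fl/fl sample 3) to 10. Without Zfp90deltaIEC sample 1 there were 7, against 15.3% of all genes, and for the other fits that share is not given here. Members whose groups did not overlap ran from 8 to 14 (without Zfp90deltaIEC sample 1, where fewer samples need be apart). In that case 7 were higher, against 14.5% of all genes, and 7 lower, against 21.6%. Of 156 recomputed log2 fold changes of the 13 members given in every sample, 1 reversed: Rep15, whose value ran from −0.12 to 0.17 when samples were left out. This low count was partly fixed in advance. Members whose groups do not overlap cannot change sign when a sample is left out. Other filters and a replicate block leave a log2 fold change as it was. Over all 35 members, the count above 0 went from 27 to 15 without Zfp90deltaIEC sample 1. The causes were not tested.

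When replicate numbers entered the fit as a block, 47 genes and 0 members passed the threshold and 11 members had an unadjusted p under 0.05. The share of all genes at that p is not given here for this fit, so the 11 has no background to be read against. Deviations of same-numbered samples correlated at 0.194, 0.110 and 0.0782, each sample best with its own number, and nothing in the labels pairs them.

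Agr3 and Muc1 are low, and 3 samples per group with the spread of the Zfp90deltaIEC samples limit what can be seen: standard errors of the members ran from 0.0774 to 0.288 on the log2 scale.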

Other observations

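The other goblet secreted proteins, outside the 37 members, followed another order than the bulk of the programme. Sample 2 was the highest among Zfp90fl/fl samples, and sample 3 among Zfp90deltaIEC samples, for all 4 that passed the filter (Clca1, Ang4, Retnlb and Reg4). The same order held for 3 of 35 members (Tff3, Fcgbp and Muc1), or 8.57%, no larger a share than the 10.7% of all genes. This order was noticed after the values were seen. Clca1, a metalloprotease secreted into mucus, was at 186, 351 and 136 FPKM in Zfp90fl/fl and 222, 196 and 394 FPKM in Zfp90deltaIEC samples. Ang4, an antimicrobial ribonuclease, ranged most widely, at 26.2, 59.0 and 2.40 FPKM against 10.3, 3.43 and 97.4 FPKM. Of these 4 proteins, Retnlb had the lower mean in Zfp90deltaIEC samples, with overlapping values (log2 fold change −1.18, adjusted p of 0.243 by limma), and Clca1, Ang4 and Reg4 had adjusted p-values of 0.756, 0.989 and 0.340. Ang4 is also a Paneth cell gene. Of 8 Paneth markers, 2 passed the filter, Ang4 being 1 of them, and the defensins Defa17, Defa22 and Defa30 were at 0 in every sample. The part of Paneth cells in the Ang4 values was not tested.

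Kit, a receptor kinase of mast cells that deep-crypt goblet cells also express, was at 8.35 FPKM in Zfp90deltaIEC sample 1 and at 4.13 to 5.07 FPKM in the other 5. The mast cell proteases Mcpt1 and Mcpt2 were at 0.698 and 0.318 FPKM in that sample. All 10 mast cell markers, Kit among them, summed to 21.9 ± 4.27 FPKM in Zfp90fl/fl and 6.71 ± 2.42 FPKM in Zfp90deltaIEC samples (SD, n = 3). The cells that gave the Kit values were not tested. Kit was also picked after its values were seen.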
